A study of Schizosaccharomyces pombe with 2 samples.

Results

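Expression of 4 genes for mating cell adhesion and fusion was followed in nitrogen-starved fission yeast with and without Lsg1, the γ subunit of the RNA polymerase II kinase CTDK-I. These are the adhesin genes *mam3* (SPAP11E10.02c) and *map4* (SPBC21D10.06c) and the cell fusion genes *prm1* (SPAP7G5.03) and *dni1* (SPAC31G5.07). The 4 genes, out of 4997 features on the array, were chosen on measured values, because all belong to the study's list of 64 genes whose log2 ratio of *lsg1Δ* over wild-type was below -1 in the deposited values. Their lower expression is therefore a description and not a finding. In those deposited values *dni1* was the member nearest to the limit, at -1.23, the last gene inside it had a ratio of -1.00468 and the first feature outside it -0.995152. The wild-type strain was JY450 (*h90 ade6-M216 leu1*) and the deletion strain was JT659 (*h90 lsg1::kanR ade6-M216 leu1*), so that both are homothallic and carry the same *ade6* and *leu1* mutations. Cells growing in minimal medium were moved to the same medium without nitrogen. Sample titles, growth protocol and methods give a harvest at 2.5 h, while the treatment label gives 2 h. Each strain is represented by 1 culture and 1 single-color (Cy3) array. No p-value can be given, and strain, culture and array cannot be told apart.

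Nitrogen starvation drives homothallic fission yeast cells, which switch between the P and M mating types, to mate with a cell of the other type. The transcription factor Ste11 turns on pheromone, receptor and cell-surface genes in the partners. Map4, on P cells, and Mam3, on M cells, are the adhesins by which partners stick together before they fuse. Prm1 is a multipass membrane protein that acts when the plasma membranes of the partners merge, a role first described in *Saccharomyces cerevisiae*. Dni1 and Dni2 are claudin-like membrane proteins that act in cell fusion. The array has 1 RNA sample from a mixed population, so fewer mating cells and less RNA per mating cell cannot be told apart for any of these genes.

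Features have array identifiers only, and the 4 genes were recognized because the ratio of each in the deposited values matched the study's list (to within 2.11e-05 for all 64 genes, the next feature being at least 0.000807 away). By the systematic names and the RefSeq annotation of assembly ASM294v3, *mam3*, *prm1* and *dni1* lie on chromosome I and *map4* on chromosome II. Each gene has 7 probes, printed at 2 spots each, and probes are numbered here from 1 to 7 by their position in the target sequence. The end from which positions are counted is not stated, and the array files hold no probe sequences. The median intensity over all 69954 spots was 6737 on the wild-type array and 5685.5 on the *lsg1Δ* array, and the log2 ratios below are corrected for this by normalization. The deleted gene was checked first, and *lsg1* had 7 of 7 probes above the lowest 5% of spots in wild-type (median intensity 3309) and 0 of 7 in *lsg1Δ* (median 197), a fall of at least 5.84-fold. For the 4 mating genes, all 28 probes were above that level on both arrays, and the brightest spot, 37867, was not saturated.

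Both adhesin genes were expressed at lower levels in *lsg1Δ* cells, *mam3* by 3.77-fold and *map4* by 3.69-fold. The fusion genes were lowered less, *prm1* by 2.35-fold and *dni1* by 2.08-fold, and in *prm1* the fall was limited to part of the probes. All 4 genes passed a 2-fold limit, as did 53 of the 4997 features (1.06%), but the genes were chosen on the same arrays and nothing is read from this count. Ranked by their ratio from the lowest of the 4997 features, *mam3* was 15th, *map4* 16th, *prm1* 33rd and *dni1* 48th.

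The probes of *mam3* on the wild-type array had intensities (means of 2 spots) of 5792.5 at the lowest, 7000.5 at the median and 21511.5 at the highest. On the *lsg1Δ* array the same probes had 1558, 1807.5 and 6100. For each probe the *lsg1Δ* spots were below both wild-type spots, also after normalization. The summarized log2 ratio was -1.91 (SD 0.22 over 7 probes), and the probes ranged from -2.05 to -1.46. Probes 3 to 7 start within 40 bases of each other, at positions 1589 to 1629, and can share sequence, while probes 1 and 2 start at 207 and 226. The *mam3* probes thus sample few separate stretches of the transcript. Probes 1 and 2 had ratios of -1.67 and -1.46, the smallest falls of the gene, and probe 3 had -1.74.

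The *map4* probes fell into a bright and a dimmer set. Probes 1 to 4, at positions 1350 to 1803, had a geometric mean intensity of 33695 in wild-type and 9188 in *lsg1Δ*. Probes 5 to 7, at 2409 to 2701, had 8772 in wild-type and 1563 in *lsg1Δ*. No *lsg1Δ* spot reached its wild-type counterparts at any probe. The summarized log2 ratio was -1.88 (SD 0.52), but the sets differed: probes 1 to 4 had ratios of -1.72, -1.43, -1.85 and -1.88, and probes 5 to 7 of -2.74, -2.69 and -2.46. In fold terms the fall averaged 3.30-fold over the bright probes and 6.19-fold over the dimmer ones. The difference between the sets, -0.91, was -0.56 with no background correction and -1.31 with an RMA-type adjustment, so its size depends on how dim spots are corrected, while its direction was the same in each.

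**Figure D1:**
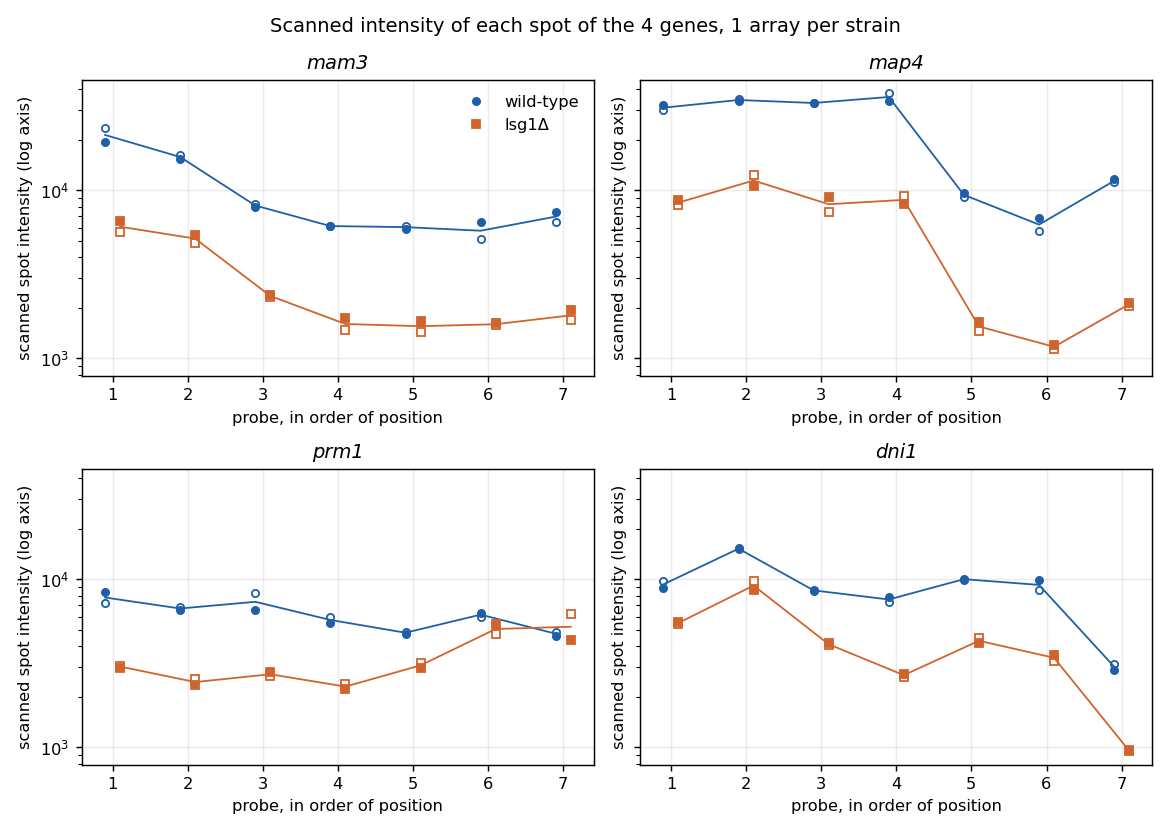
Scanned intensity (log axis) of every spot of *mam3*, *map4*, *prm1* and *dni1* on the wild-type array (blue circles) and the *lsg1Δ* array (orange squares), before normalization, against the probe number; filled and open symbols are the 2 spots of a probe and lines join their geometric means. The strains are apart at every *mam3*, *map4* and *dni1* probe and, in these values, overlap only at probe 7 of *prm1*.

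The fusion gene *prm1* was not lowered at all of its probes, and whether each of them measures *prm1* RNA alone was not tested. Its wild-type probe intensities were 4749 at the lowest, 6168 at the median and 7822.5 at the highest, and in *lsg1Δ* they were 2299.5, 3025.5 and 5306. Probes 1 to 4, at positions 758 to 1632, had log2 ratios of -1.24, -1.37, -1.33 and -1.23, a mean fall of 2.45-fold. Probe 5, at position 1759, had a ratio of -0.45. Probe 6, at 1966, had -0.04, and its normalized spots overlapped between the strains. Probe 7, at 2005, had 0.43, with both normalized *lsg1Δ* spots above those of wild-type. The ratio thus changed between positions 1632 and 1966 from a fall past 2-fold to none. The mean ratio of probes 5 to 7 was -0.02, which is 1.27 above that of probes 1 to 4.

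The probes of *prm1* ranked differently on the 2 arrays. In wild-type the geometric mean intensity was 6873 over probes 1 to 4 and lower, 5204, over probes 5 to 7, whereas in *lsg1Δ* it was 2609 and higher, 4359. Spots of the same probe varied less than this step. The ratios from the 2 spots of a probe differed by a median of 0.17 over all 34977 probes, with a 95th percentile of 0.50, and in *prm1* by at most 0.46. The step was 1.19 with the spots of block 1 alone and 1.35 with those of block 2, and 1.13 with no background correction. The summarized ratio of *prm1*, -1.23 (SD 0.73 over 7 probes), therefore describes probes 1 to 4, and the mean over all probes was -0.75.

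The *dni1* probes had wild-type intensities of 3023.5 at the lowest, 9293.5 at the median and 15240 at the highest. In *lsg1Δ* these were 953.5, 4107.5 and 9208. Every *lsg1Δ* spot was below its wild-type counterparts, at all 7 probes. The summarized log2 ratio was -1.05 (SD 0.51). The fall became larger toward higher probe positions, the opposite of *prm1*. Probes 1 and 2, at positions 1 and 22, had ratios of -0.56 and -0.53, probe 3, at 107, had -0.89, and probe 7, at 365, had -1.98. Between them, probes 4 to 6, which start within 32 bases of each other, had ratios of -1.40, -1.05 and -1.31. The mean fall was 1.79-fold over probes 1 to 4 and 2.72-fold over probes 5 to 7. The division between these sets runs through the close probes 4 to 6, and probe 4 fell more than probes 5 and 6. Probe 7 was the dimmest of the gene, and its 953.5 in *lsg1Δ* was just above the lowest 5% of spots there, which end at 912. Its ratio, which was -1.66 in scanned intensities without background correction or normalization, thus rests on dim spots. The same holds for part of the mean over probes 5 to 7.

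**Figure D2:**
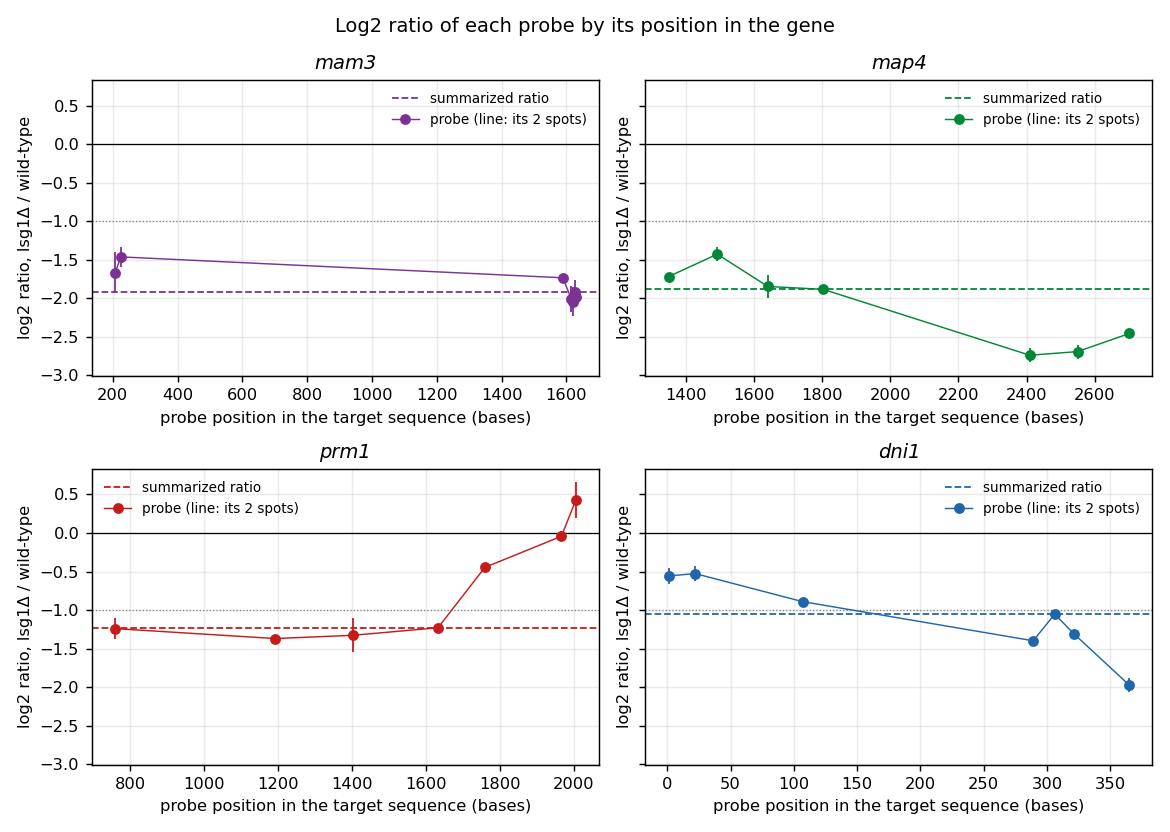
Log2 ratio of *lsg1Δ* over wild-type for each probe (points; vertical lines span its 2 spots) against the probe's position in the target sequence, in bases; dashed lines are the summarized ratios and dotted lines mark a 2-fold fall. The *prm1* probes rise from -1.24 at position 758 to 0.43 at position 2005, while *map4* and *dni1* fall toward higher positions.

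Over the 28 probes of the 4 genes, 22 were lower by more than 2-fold, against 483 of all 34977 probes (1.38%). In 26 of the 28, both normalized *lsg1Δ* spots were below both wild-type spots, and 26.3% of all probes were arranged this way. The 2 exceptions were probes 6 and 7 of *prm1*. These shares follow from the choice of the genes.

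Differences between probes 5 to 7 and probes 1 to 4 as large as that of *prm1* were rare on this array. However, these probe groups were chosen with the *prm1* probes already known. By measures without such groups, 117 of the features with 7 probes (2.34%) had a probe range as large. An SD over probes as large was found in 101 (2.02%), among them 6 of the 53 features lower by more than 2-fold. These counts include *prm1*. The mean of probes 5 to 7 minus that of probes 1 to 4 had a median of 0.02 over the 4996 features with 7 probes, and 5th and 95th percentiles of -0.24 and 0.29. Over the 53 features lower by more than 2-fold the median was -0.04 and these percentiles were -0.906 and 1.01. The *prm1* value lay above this range, that of *map4* (-0.910) just below it and that of *dni1* within it. The difference was above 1 in 10 features (0.2%), and 5 of these, *prm1* included, were at or above the *prm1* value. Of the other 4, those with a gene name here are *lsd90* (1.63), singled out after its value was seen, and *ste6* (1.54), which encodes a Ras guanine nucleotide exchange factor. Both kept a fall at probes 5 to 7, with mean ratios there of -1.32 for *lsd90* and -1.503 for *ste6*, unlike *prm1*. In *lsg1Δ* only 6 of 7 probes of either gene were above the lowest 5% of spots. Their normalized wild-type levels were also higher at probes 5 to 7 than at probes 1 to 4, by 1.32 for *lsd90* and 1.02 for *ste6* (log2). In the opposite direction the difference was below -0.5 in 70 features (1.4%), among them *map4* and *dni1* (-0.60). With no background correction that of *dni1* was -0.41, outside this limit. For *mam3* it was -0.26, but there the division runs through probes 3 to 7, which start within 40 bases of each other. Among the 53 features lower by more than 2-fold, 3 had a difference above 1 and 7 one below -0.5. Over all features the median ratio by probe number stayed between -0.002 and 0.06, with no general trend of the size seen in *prm1*, *map4* or *dni1*.

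**Figure D3:**
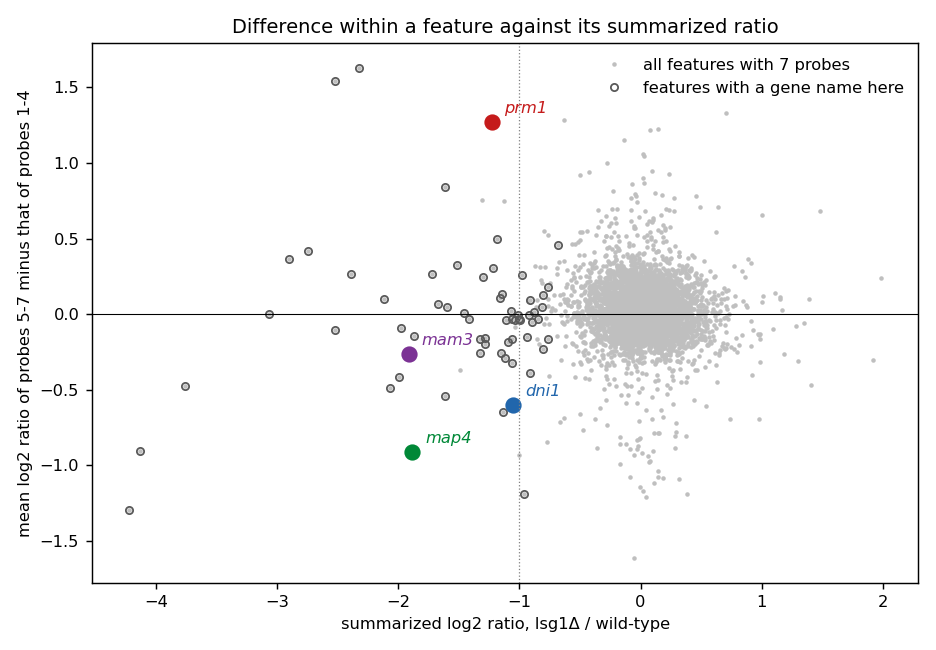
Mean log2 ratio of probes 5 to 7 minus that of probes 1 to 4 (vertical axis) against the summarized log2 ratio of *lsg1Δ* over wild-type (horizontal axis) for each feature with 7 probes; open circles are features with a gene name here, and the dotted line marks a 2-fold fall. *prm1* lies at 1.27 on the vertical axis, above most lowered features, and *map4* at -0.91.

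In the RefSeq annotation the span of *prm1* holds the whole of *lys1*, a lysine biosynthesis gene that the systematic names place on the opposite strand, and overlaps 2 noncoding RNAs. The span of *map4* overlaps 3 noncoding RNAs and that of *dni1* 1. That of *mam3* overlaps its neighbor SPAP11E10.01 and no noncoding RNA. Of the 5124 protein-coding genes, 76.4% overlap at least 1 noncoding RNA and 30.3% at least 2, and 42.7% overlap another protein-coding gene, but only 3.77% hold a whole one as *prm1* does. The labels do not say whether labeling kept the strand, so RNA of a gene and of a partner on the other strand cannot be told apart. Without the genome build behind the array, the probes were not placed within these spans, and the part of overlapping transcripts in the probe ratios was not tested.

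A list of 13 genes for mating cell adhesion and fusion also holds *dni2* (SPBC4.01), which encodes the partner of Dni1. Its summarized log2 ratio was -1.999 (SD 0.76), a larger fall than that of *dni1* by more than either gene's probe SD. These SDs are a spread among probes and do not measure a difference between genes. The fall of *dni2* was also larger than those of *mam3* (-1.91) and *map4* (-1.88). In the deposited values it was smaller, at -1.98 against -2.31 for *mam3* and -2.20 for *map4*. The *dni2* probes had intensities of 721.5 at the lowest, 4253.5 at the median and 10094.5 at the highest in wild-type, against 243, 1351.5 and 2415 in *lsg1Δ*. Only 6 of its 7 probes were above the lowest 5% of spots in wild-type and 5 in *lsg1Δ*, and the spots of its dimmest probe, probe 7, differed in ratio by 1.66. Like *dni1*, it had a small fall at its first probe (-0.74, position 2) and larger ones at probes 2 to 5 (-2.38 to -1.79). Probe 6 was below the lowest 5% in *lsg1Δ*, where its ratio has only a bound, and probe 7, the last, had a ratio of -0.91 from spots below this level on both arrays. In all, 5 of the 13 listed genes have a name on this array and 8 were not identified, *fus1* and *cfr1* among them. All 5 passed the 2-fold limit downward, with a median ratio of -1.88 against 0.01 over all features. A gene could be named only if it was on the study's list of lowered genes, so these counts show no direction of their own.

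The adhesin genes of the P and M types had ratios 0.03 apart in the processing used here. In that processing the other named genes used mainly by P cells had larger falls than *map4*. The largest was in *map2* (-4.22, SD 0.74), which encodes the precursor of P-factor, although only 4 of its 7 probes stood above the lowest 5% of spots in *lsg1Δ*. In *lsg1Δ* the same held for 6 probes of *map3*, 5 of *map1* and 5 of *mfm1*, and in wild-type for 6 of *map1*, so these ratios rest in part on dim spots. The receptor gene *map3*, whose product binds M-factor, was at -2.39 (SD 0.70), and *map1*, encoding a transcription factor of P cells, at -2.12 (SD 0.60). In the deposited values the fall of *map1* was smaller than that of *map4*, at -1.91 against -2.20. Among 7 named genes used mainly by M cells, only 2 had larger falls than *mam3*, the M-factor precursor genes *mfm1* (-3.76, SD 0.30) and *mfm2* (-3.07, SD 0.13). The fall of *mam3* was larger than those of *mam2*, the P-factor receptor gene (-1.60), and of *mam1*, the M-factor transporter gene (-1.29). The median ratio was -2.25 over the 4 named P genes and -1.60 over the 7 named M genes. Genes of the pheromone response shared by both types had a median of -1.62 over 9 named genes, 8 of which were past 2-fold. As for the adhesion and fusion genes, the counts and medians of these lists follow from the choice of the named genes, and 1.06% of all features passed this limit. The exception, the MAP kinase kinase gene *byr1*, was at -0.88. The regulator gene *ste11* was at -1.41 (SD 0.15), so *mam3* and *map4* had larger falls than *ste11* and *prm1* and *dni1* smaller ones. The excess of *map4* and the shortfalls of *prm1* and *dni1* are smaller than the probe SDs of these genes, and the excess of *mam3* is larger than its own. A probe SD does not measure a difference between genes, and 5 of the *mam3* probes can share sequence. The ratio of *mam3* was also -1.60 with no background correction, so nothing is read from this excess. Unlike *prm1*, *ste11* had ratios between -1.71 and -1.34 at all 7 probes.

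**Figure D4:**
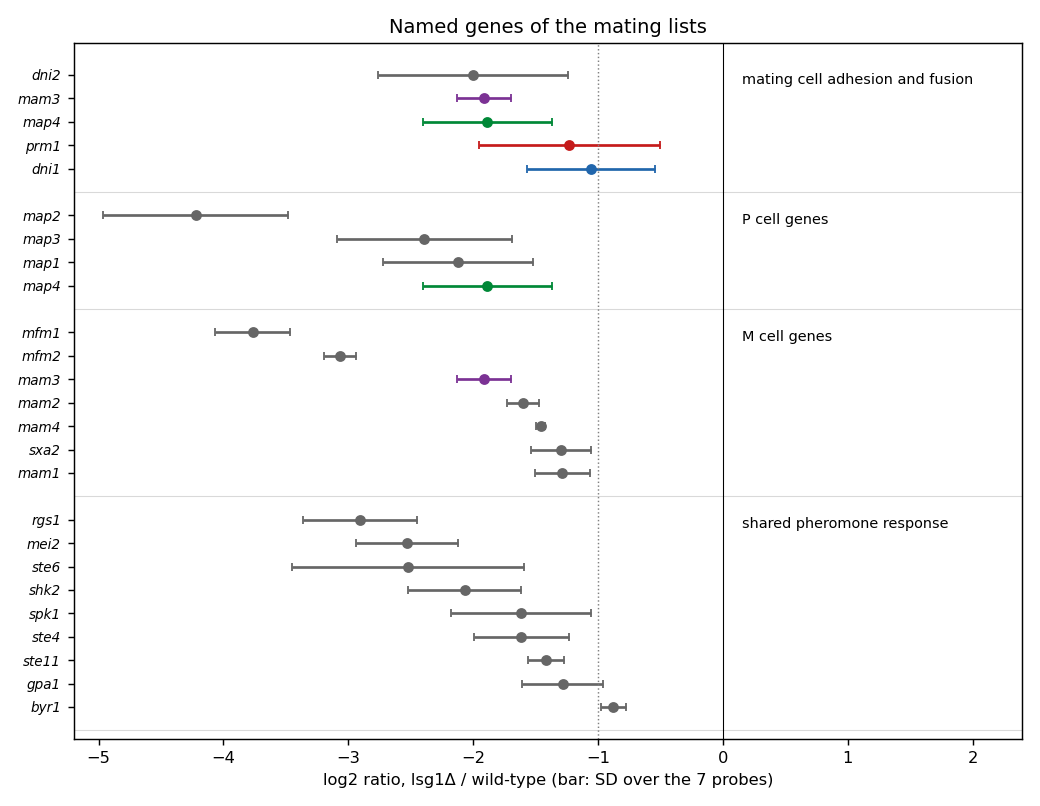
Log2 ratio of *lsg1Δ* over wild-type (points) with the SD over 7 probes (bars, a spread among probes and not an error between cultures) for the named genes of the 4 lists; the dotted line marks a 2-fold fall. In the processing used here *map4* has the smallest fall among the named P genes, and *mam3* follows *mfm1* and *mfm2* among the M genes. The bars of *prm1* and *dni1* cross the dotted line.

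By the summarized ratio over the 2 arrays, the named gene nearest to *mam3* was *map4*, at a difference of 0.03. The nearest to *map4* was SPBPB10D8.02c (-1.87), the nearest to *prm1* was *mug14* (-1.22, SD 0.23) and the nearest to *dni1* was the ferric reductase gene *frp1* (-1.06, SD 0.17). With 2 arrays this likeness is that of a single ratio.

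The order of the 4 genes depended in part on the processing. The ratio of *mam3* was -1.60 with no background correction, -2.36 with an RMA-type adjustment and -2.31 in the deposited values, and *map4* was at -1.83 with no background correction. The fall of *map4* was then larger than that of *mam3*, and also with the mean of probes (-2.11 against -1.83), with odd-numbered probes (-2.15 against -1.86) and with the spots of block 1 (-1.89 against -1.84) or block 2 (-2.002 against -1.93), so the adhesin genes have no settled order. The fall of *dni1* missed the 2-fold limit with no background correction, at -0.98, and with odd-numbered probes, at -0.97. That of *prm1* missed it with odd-numbered probes (-0.84) and, as above, with the mean of probes. The fall of *prm1* was also smaller than that of *dni1* with odd-numbered probes, with the mean of probes (-1.10 for *dni1*) and with even-numbered probes (-1.23 against -1.31), so the order of these genes is not settled either. In the deposited values *prm1* was at -1.57 and *map4* at -2.20. In every processing run on all probes, and with odd or even probes alone, the adhesin genes had larger falls than *prm1* and *dni1*.

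**Figure D5:**
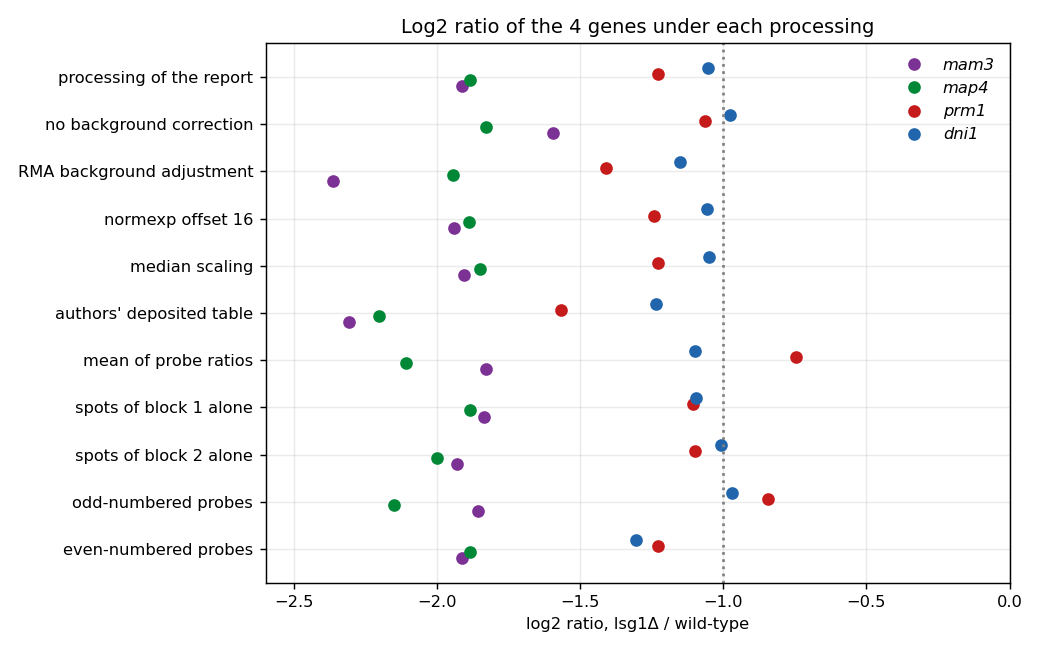
Log2 ratio of *lsg1Δ* over wild-type of the 4 genes (colors) under the processing of the report and 10 alternatives (rows); the dotted line marks a 2-fold fall. *mam3* moves between -2.36 and -1.60, and *prm1* and *dni1* lie on either side of the dotted line.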

How the data were processed

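Total RNA of each strain was hybridized to 1 array. The scanner intensities of single spots were deposited as linear values with no background column. The authors also deposited 1 normalized linear intensity per feature and strain, with acquisition and normalization done for them by Roche Applied Science and the normalization method not described. Of its 9994 rows, the second 4997 repeat the first, and this table was used to name features and as an alternative. The study's fold change list was read only for names. In R 4.3.3 with limma 3.58.1, intensities were background-corrected (normexp, offset 50), quantile-normalized over all spots, averaged over the 2 spots of a probe on the log2 scale and summarized over probes by median polish. Figures were drawn with matplotlib 3.10.9. With 1 array per strain there was no test, and precision is limited by this number of arrays. The SD is that of 7 probes, a technical spread. The processing was tested on simulated arrays, in which all probes of a feature were shifted alike and only spot noise was added. That test does not cover differences among the probes of a feature, or between cultures or arrays. Genes named are the 4 members, *lsg1*, *ste11*, the listed genes that could be named and the nearest gene to each member by ratio. Also named are *lsd90*, singled out after its value was seen, and genes that overlap a member in the annotation. The members, lists and probe groups were chosen with earlier results of these data known. The planned promoter motif search was not run, since no sequence was used here, and 60 of the 64 named loci matched RefSeq.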

Additional observations from a re-analysis of the deposited data

How the results depend on the processing

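No paired analysis was possible because there was a single array for either strain, with no test. Over 68 values of the 4 log2 ratios under alternatives, 65 stayed within the probe SD of the gene, 3 moved by more and none changed sign. The 3 that moved are those of mam3, -1.91 in the report, which was -1.60 with no background correction, -2.36 with limma's RMA-type background adjustment and -2.31 in the authors' deposited table. This limit is wide for a gene with unlike probes: prm1 (SD 0.73) ran from -1.57 to -0.75 without a value counted as moved. The kept sign follows from choosing genes lowered on these arrays. Leaving out each probe in turn gave -1.95 to -1.82 for mam3, -2.17 to -1.87 for map4, -1.23 to -0.84 for prm1 and -1.18 to -0.97 for dni1, so prm1 and dni1 lose the 2-fold limit without some probes (for prm1, any of probes 1 to 4; for dni1, probe 4, 6 or 7). The difference between probes 5 to 7 and probes 1 to 4 was 1.13 to 1.48 for prm1 and -0.62 to -0.41 for dni1. That of map4, -0.91, was -0.56 without background correction, and -1.31 after the RMA-type adjustment, and that of mam3, -0.26, was -0.48 with the RMA-type adjustment. The causes were not tested. Features lower by more than 2-fold numbered 39 to 64 (53 in the report), and those higher 6 to 22 (17 in the report), with the 6 coming from no background correction. Running the difference on median-scaled arrays and on each block of spots was added after the data were seen. Signal limits dni2, map1, map2 and mfm1. For dni2, 1 of 7 probes in wild-type and 2 in lsg1Δ were in the lowest 5% of spots.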
